A study of Mus musculus with 6 samples.

Results

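The 9 genes described here belong to androgen, estrogen, growth hormone and prolactin signalling and were measured in whole mouse kidneys by RNA sequencing. They are the receptors Ghr, Prlr and Esr1, the signal protein Stat5b, and the targets or repressors Socs2, Cish, Bcl6, Kap and Greb1. They were taken by symbol from the 24434 gene symbols of the count table, and all 9 were found and kept after the filter on low counts. The symbols were chosen by role with their fold changes between db/db and db/m known from earlier results, so the difference of each of the 9 genes between the groups is given below as a description, without a p-value. Other genes of the same pathways were tested.

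There were 6 libraries of whole kidney from mice on normal chow, 3 with the db/db genotype label and 3 with db/m. The mutation db inactivates signalling by the leptin receptor in every tissue that uses it; db/db animals become obese and diabetic, and db/m animals, which still carry 1 db allele, are the lean control of the design. The labels used here give no age, sex or strain background, and do not tie libraries to separate animals. The errors therefore measure the spread between these libraries. Total counts were 27023129 to 29868789 in db/db libraries and 25937756 to 35931140 in db/m libraries. The summed level of 4 Y-linked genes was 80.9 to 101.5 CPM (counts scaled to a common library size) in db/db libraries and 91.9 to 104 CPM in db/m libraries, with 5 to 10 counts of Xist per db/db library and 6 to 9 per db/m library, the pattern of male tissue. Of 8 proximal tubule markers, 1 rose (Slc27a2, log2 fold change 1.04, edgeR adjusted p = 0.00114) and 1 fell (Slc5a12, -0.60, adjusted p = 0.0399). Of all genes tested, 13.1% rose and 10.8% fell. The 8 markers had a median of 0.16. Their sum was 14904 to 16662 CPM in db/db libraries and 9971 to 12700 CPM in db/m libraries, mostly from Slc34a1 and Slc27a2. In bulk kidney RNA, fewer cells of a type and less RNA per cell cannot be told apart.

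Growth hormone and prolactin bind related receptors at the cell surface, which act through the kinase Jak2 to phosphorylate Stat5a and Stat5b; the phosphorylated Stat5 proteins enter the nucleus and switch on genes that include Cish and Socs2, whose products dampen the same receptors. Bcl6 is a repressor that can occupy Stat5 sites, and in liver Stat5 represses Bcl6. Androgens and estrogens act through nuclear receptors that bind DNA directly. The mouse kidney is strongly sex-dependent, mainly in the proximal tubule, where androgen raises genes such as Kap. Phosphorylation, hormone levels and receptor protein are not seen in these data.

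The DNA motif TTCNNNGAA, the consensus that Stat5 proteins recognise and that Bcl6 sites resemble, is shown here for the genes that carry it near an annotated start, since the results turn on whether Stat5 targets followed their receptors. It reads the same on both strands. RefSeq windows from 250 bases before to 50 bases after a start (GRCm38.p6) were held for 8 of the 9 genes, in 15 windows. No window was held for Socs2, so it was not searched for the motif. The motif was in 5 of these windows and in 4 genes, against 8.30% of all 32851 windows. Each stretch runs 5′ to 3′ on the gene's strand, with the motif in capitals and 5 flanking bases at each end.
Cish, chr9:107296654-107296683, plus strand: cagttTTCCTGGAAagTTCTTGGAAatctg
Bcl6, chr16:23981358-23981456, minus strand: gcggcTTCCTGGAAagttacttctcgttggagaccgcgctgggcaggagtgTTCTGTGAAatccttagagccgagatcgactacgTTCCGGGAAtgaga
Bcl6, chr16:23988957-23988975, minus strand: attagTTCTCAGAAttcca
Prlr, chr15:10223791-10223809, plus strand: atgagTTCTAGGAAtaagg
Esr1, chr10:4709965-4709983, plus strand: gtttcTTCTAGGAAtgctg
Cish held 2 motifs close together and Bcl6 held 3 in one window and 1 in another. The palindrome GGTCANNNTGACC of the estrogen receptor, likewise the same on both strands, was in none of the 15 windows, against 0.0700% of all windows. A match or its absence describes these letters in these windows only.

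The receptors did not move in one direction. Ghr, the growth hormone receptor, was at 726, 571 and 671 CPM in db/db libraries and 231, 323 and 271 CPM in db/m libraries. Every db/db library lay above every db/m library, with a log2 fold change of db/db over db/m of 1.26 (SE 0.15), a 2.39-fold difference. Prlr, the prolactin receptor, was at 11.2, 8.00 and 11.0 CPM in db/db libraries and 55.2, 43.4 and 65.6 CPM in db/m libraries. Again the groups did not overlap, in the other direction, and the log2 fold change was -2.44 (SE 0.19), which puts db/m 5.43-fold above db/db. In the GENCODE M21 annotation, which may differ from that behind the counts, exons of Prlr overlap those of Gm21973 on the same strand. Reads from the shared stretches could belong to either gene. In mice, Prlr has a long and several short receptor forms, which counts summed over the gene do not separate. Against each other within a library, which does not depend on scaling between libraries, there were 0.0154, 0.0140 and 0.0164 counts of Prlr per count of Ghr in db/db libraries and 0.239, 0.134 and 0.242 in db/m libraries. The balance between these 2 receptor transcripts thus differed by more than the spread in either group.

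Esr1, the nuclear estrogen receptor alpha, was uneven among db/db libraries. It stood at 16.1 and 11.1 CPM in db/db replicates 1 and 2 and at 1.68 CPM in db/db replicate 3, against 4.14, 3.92 and 5.54 CPM in db/m libraries. Both of the first lay above all db/m libraries and db/db replicate 3 lay below all of them, from 400, 280 and 46 counts in db/db libraries and 114, 155 and 172 in db/m libraries. The log2 fold change was 1.08 (SE 0.67, 95% interval -0.48 to 2.64), or 1.59 with db/db replicate 3 left out and 0.50 with db/db replicate 1 left out. Adipocytes express Esr1 and Ghr too, and the summed level of 7 adipocyte markers was 73.2, 71.4 and 374 CPM in db/db libraries and 70.9, 52.0 and 177 CPM in db/m libraries. Fabp4 gave most of the sum in replicates 1 and 2, at 68.3 and 70.7 CPM in db/db libraries and 65.6 and 48.7 CPM in db/m libraries. Adipoq was at 0.522, 0.0793 and 19.2 CPM in db/db libraries and 1.35, 0.506 and 13.6 CPM in db/m libraries. Lep was not highest in db/db replicate 3, with 4, 0 and 0 counts in db/db libraries and 24, 11 and 485 in db/m libraries. Replicate 3 had the highest adipocyte sum of each group, with the lowest Esr1 among db/db libraries and the highest Esr1 among db/m libraries. The part of adipocyte RNA in the result was not tested. Without both replicates numbered 3, the log2 fold change was 1.75 for Esr1 and 1.23 for Ghr.

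Stat5b, the signal protein shared by the growth hormone and prolactin receptors, was level. It was at 41.1, 40.2 and 41.9 CPM in db/db libraries and 42.0, 35.0 and 44.0 CPM in db/m libraries. The groups overlapped, and the 95% interval of the log2 fold change of 0.03 ran from -0.21 to 0.27. Stat5a, its neighbour and near copy, averaged 21.1 ± 3.15 CPM in db/db libraries and 17.6 ± 2.75 CPM in db/m libraries (SD, n = 3 each; log2 fold change 0.26, SE 0.16, edgeR adjusted p = 0.266). Reads from the near-identical stretches of this pair could be split between them, so their separate counts are uncertain. Jak2, the kinase bound to both receptors, averaged 25.5 ± 4.69 CPM in db/db libraries and 25.3 ± 2.78 CPM in db/m libraries, and its log2 difference of 0.01 (95% interval -0.35 to 0.37) changed sign between scalings (-0.25 with total counts only).

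**Figure D1:**
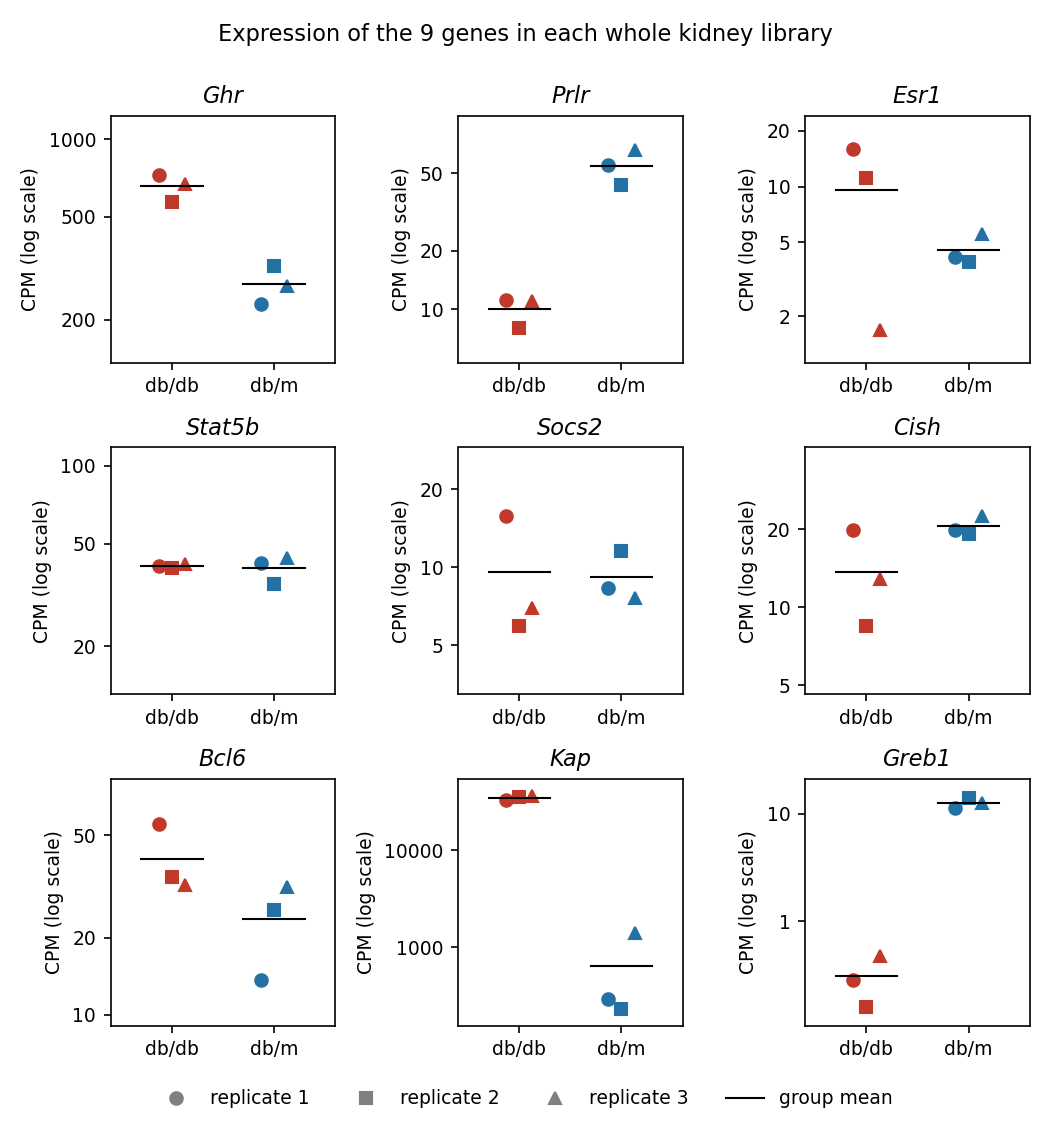
CPM on a log axis for each of the 9 genes, with db/db libraries in red and db/m libraries in blue; markers give the replicate number and lines the group mean (n = 3 each). Ghr, Prlr, Bcl6, Kap and Greb1 do not overlap between groups, and Esr1 is split among db/db libraries from 1.68 to 16.1 CPM.

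Transcripts of the Stat5 targets that dampen the receptors did not follow Ghr upward. Socs2, which encodes a feedback inhibitor of growth hormone signalling, was at 15.8, 5.94 and 6.97 CPM in db/db libraries and 8.32, 11.5 and 7.57 CPM in db/m libraries. The highest and the lowest values were both in db/db libraries. Its log2 fold change was 0.06 (SE 0.38, 95% interval -0.82 to 0.95), with the direction set by db/db replicate 1, without which it was -0.50. Cish, which encodes a related inhibitor and whose paired motifs are printed above, was at 19.9, 8.48 and 12.8 CPM in db/db libraries and 20.0, 19.2 and 22.6 CPM in db/m libraries. Replicates 2 and 3 of db/db lay below all db/m libraries, while db/db replicate 1 lay among them. The log2 fold change was -0.58 (SE 0.28, 95% interval -1.24 to 0.07), or -0.95 with db/db replicate 1 left out and -0.33 with db/db replicate 2 left out.

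Per count of Ghr, both inhibitors were lower in db/db libraries. There were 0.0274, 0.0148 and 0.0191 counts of Cish per count of Ghr in db/db libraries and 0.0867, 0.0595 and 0.0834 in db/m libraries. For Socs2 the ratios were 0.0217, 0.0104 and 0.0104 in db/db libraries and 0.0361, 0.0357 and 0.0280 in db/m libraries. Neither ratio overlapped between groups. For Socs2, which was level on average, the difference came with the higher Ghr count of db/db libraries. For Cish it came with the higher Ghr count and also with the lower Cish of db/db replicates 2 and 3. Ghr was chosen with its rise known, so any gene with level counts would show a lower ratio to it.

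Bcl6, the repressor, was at 55.1, 34.4 and 31.9 CPM in db/db libraries and 13.6, 25.6 and 31.5 CPM in db/m libraries. The groups did not overlap, but the lowest db/db library and the highest db/m library were nearly equal. The log2 fold change was 0.78 (SE 0.33, 95% interval 0.01 to 1.54), or 0.49 without db/db replicate 1 and 0.52 without db/m replicate 1. Per count of Ghr, Bcl6 overlapped between groups, at 0.0475 to 0.0759 in db/db libraries and 0.0591 to 0.116 in db/m libraries. Lymphocytes also use Bcl6, and 8 lymphocyte markers summed to 4.09, 5.63 and 5.48 CPM in db/db libraries and 4.40, 8.78 and 9.66 CPM in db/m libraries. Within the db/m libraries the order of the lymphocyte sum was that of Bcl6, while db/db replicate 1 had the highest Bcl6 and the lowest lymphocyte sum of its group. The part of lymphocyte RNA in the result was not tested. Among db/db libraries, replicate 1 was the highest for Ghr, Socs2, Cish, Bcl6, Esr1 and Prlr, 6 of the 9 genes, against 33.5% of all 16373 genes tested.

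**Figure D2:**
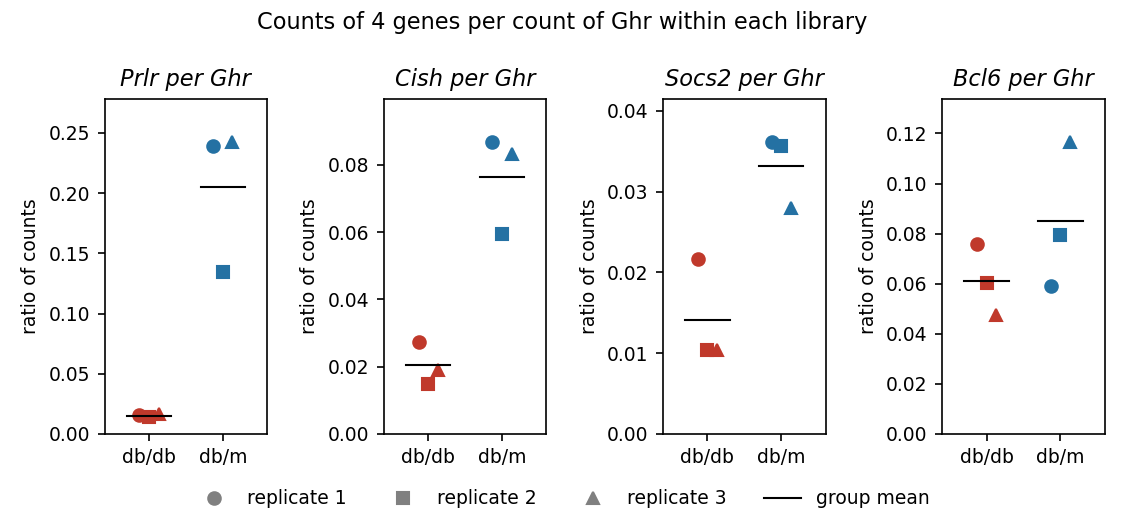
Counts of Prlr, Cish, Socs2 and Bcl6 divided by the count of Ghr in the same library, on linear axes from 0, with db/db libraries in red on the left, db/m libraries in blue and lines at the group means (n = 3 each). Prlr, Cish and Socs2 per Ghr are lower in every db/db library than in any db/m library, and Bcl6 per Ghr overlaps.

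The steroid-regulated targets moved furthest, and in opposite directions. Kap encodes a secreted proximal tubule protein raised by androgen. It was at 33061, 35459 and 36390 CPM in db/db libraries and 292, 231 and 1400 CPM in db/m libraries. Kap took 3.05% to 3.34% of all counts in db/db libraries and 0.0254% to 0.157% in db/m libraries. The log2 fold change was 5.77 (SE 0.78), a 54.6-fold difference, and 7.07 without db/m replicate 3, whose Kap level was the highest of the db/m libraries but far below any db/db library.

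Greb1, known in human breast and prostate cells as a target of sex steroids, was at 0.281, 0.159 and 0.475 CPM in db/db libraries and 11.3, 14.1 and 12.7 CPM in db/m libraries. That is 7, 4 and 13 counts in db/db libraries against 310, 556 and 394 counts in db/m libraries. The groups were far apart, with a log2 fold change of -5.35 (SE 0.34), which puts db/m 40.7-fold above db/db. Mean Esr1 was not lower in db/db libraries, though db/db replicate 3 lay below all db/m libraries for Esr1. There were 0.0175, 0.0143 and 0.283 counts of Greb1 per count of Esr1 in db/db libraries and 2.72, 3.59 and 2.29 in db/m libraries. Greb1 was chosen with its fall known, and the lower ratio follows from its few counts in db/db libraries. The part of Esr1 in the Greb1 difference was not tested.

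Over the 9 genes, 4 had an adjusted p below 0.05 in the edgeR fit across all genes (Ghr and Kap higher, Prlr and Greb1 lower), where 24.0% of all genes tested did. The groups did not overlap for 5 of the 9, against 44.6% of all genes tested. These counts describe genes listed with the comparison known. The same 4 genes were called under every scaling, tool and filter that was tried and with each library left out. DESeq2 added Bcl6 to them, leaving out db/db replicate 3 added Esr1, and leaving out db/db replicate 1 added Cish. All these settings reused the libraries whose fold changes were known when the genes were chosen. They show how the calls depend on the settings and do not test the 9 genes.

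Per kilobase of annotated exon (GENCODE M21, which may differ from the annotation behind the counts), mean levels in db/db kidneys were in the order Kap (49463 CPM per kilobase), Ghr (142), Bcl6 (11.5), Stat5b (7.41), Cish (3.76), Socs2 (3.54), Esr1 (1.24), Prlr (0.767) and Greb1 (0.0378). In db/m kidneys the order was Kap (907), Ghr (59.3), Stat5b (7.28), Bcl6 (6.69), Cish (5.65), Prlr (4.17), Socs2 (3.39), Greb1 (1.57) and Esr1 (0.585). Ghr was thus the most abundant of the 3 receptor transcripts in both groups. Neighbours in this order whose libraries overlapped were Cish and Socs2, and Esr1 and Prlr, in db/db kidneys, and Stat5b and Bcl6, Bcl6 and Cish, and Prlr and Socs2 in db/m kidneys.

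The wider pathway of the growth hormone and prolactin receptors, a list of 29 other kinases, Stat and Socs proteins, phosphatases, adaptors and Igf genes, changed little. In the edgeR test, 1 of 29 rose and 1 fell, against 13.1% and 10.8% of all genes tested, and the list's median log2 fold change was 0.05, against -0.06 over all genes tested. The gene that rose was Igfbp3, which encodes a carrier of insulin-like growth factors, at 285 ± 74.4 CPM in db/db libraries and 106 ± 23.0 CPM in db/m libraries (SD, n = 3 each; log2 fold change 1.42, SE 0.22, adjusted p = 0.00499). The gene that fell was Socs5, a further member of the inhibitor family, at 11.6 ± 2.10 CPM in db/db libraries and 18.5 ± 0.417 CPM in db/m libraries (log2 fold change -0.68, SE 0.15, adjusted p = 0.0174). Socs5 missed the threshold when replicate 2 of either group was left out, with an adjusted p of 0.0582 without that of db/m and 0.0504 without that of db/db. Igf1, the classical growth hormone target of liver, was at 8.55, 4.32 and 5.58 CPM in db/db libraries and 2.04, 3.65 and 6.15 CPM in db/m libraries, which overlapped (log2 fold change 0.64, SE 0.42, adjusted p = 0.302). Socs3, an inhibitor induced by many cytokines, differed by 0.30 on the log2 scale (SE 0.35, 95% interval -0.53 to 1.13, adjusted p = 0.557), or by -0.07 once db/db replicate 3 was left out.

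Of 24 tested sex steroid receptors, cofactors and conversion enzymes, 7 rose and 4 fell, against 13.1% and 10.8% of all genes tested, with a list median of 0.09 on the log2 scale against -0.06. The furthest rise was that of Hsd17b2, a 17-beta-hydroxysteroid dehydrogenase that inactivates estradiol and testosterone, at 20.6, 11.5 and 16.8 CPM in db/db libraries and 2.07, 4.48 and 2.77 CPM in db/m libraries (log2 fold change 2.38, SE 0.33, adjusted p = 0.00339). Esr2, the second estrogen receptor, had 5, 0 and 0 counts in db/db libraries and 6, 12 and 13 in db/m libraries and was too low to test. Hsd17b11, a short-chain dehydrogenase of the 17-beta-hydroxysteroid dehydrogenase family, was at 546 ± 97.7 CPM in db/db libraries and 126 ± 8.22 CPM in db/m libraries (log2 fold change 2.12, SE 0.14, adjusted p = 0.000232). Srd5a2 and Srd5a1 encode steroid 5-alpha-reductases, which turn testosterone into the more potent dihydrotestosterone. Srd5a2 was at 19.8, 31.3 and 21.5 CPM in db/db libraries and 6.54, 6.58 and 6.92 CPM in db/m libraries (log2 fold change 1.85, SE 0.19, adjusted p = 0.00115). Srd5a1 was at 28.2, 30.9 and 26.6 CPM in db/db libraries and 13.1, 11.3 and 14.8 CPM in db/m libraries (log2 fold change 1.13, SE 0.13, adjusted p = 0.00158). The fall with the smallest p was that of Ncoa4, a ferritin receptor also known as a cofactor of nuclear receptors, at 101 ± 10.7 CPM in db/db libraries and 165 ± 18.6 CPM in db/m libraries (log2 fold change -0.71, SE 0.12, adjusted p = 0.00605). Only 2 falls were called when replicate 2 of db/m or replicate 1 or 3 of db/db was left out.

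**Figure D3:**
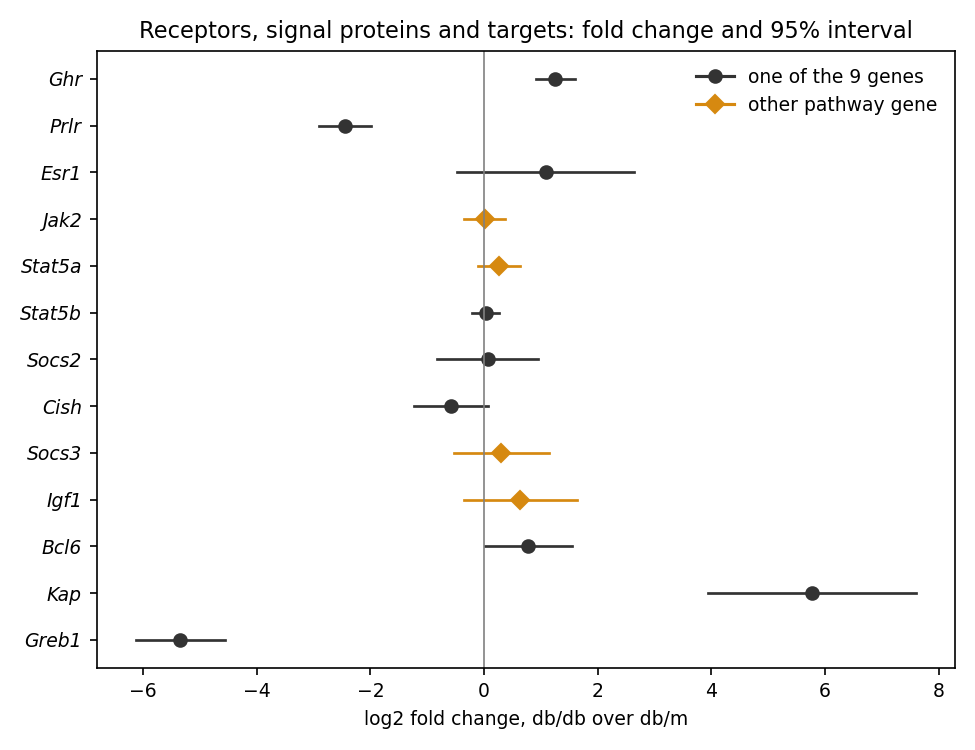
Log2 fold change of db/db over db/m with its 95% interval (edgeR, n = 3 each) for the 9 genes (black circles) and 4 other pathway genes (orange diamonds), ordered from receptors to targets. Kap (5.77) and Greb1 (-5.35) lie far from 0 on opposite sides, while Stat5b, Jak2 and Socs2 lie at 0.01 to 0.06.

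Of other genes with a known sex bias in mouse kidney, those higher in males mostly rose, as Kap did. Earlier results of these data had shown such changes before the list was made. Of 14 genes higher in males or induced by androgen, 12 rose and 0 fell, against 13.1% and 10.8% of all genes tested. The list's median log2 fold change was 3.20, against -0.06 over all genes tested. The other 2, Gusb and Cyp4a12a, missed the threshold (edgeR adjusted p = 0.0545 and 0.0530). The number that rose ran from 10 to 13 with 1 library left out. The organic anion transporter Slco1a1 differed most (log2 fold change 10.33, SE 0.24). It had 7602, 9751 and 9868 counts in db/db libraries and 11, 7 and 8 in db/m libraries. The size of its fold change thus rests on few db/m counts. Nudt19, a classical androgen-induced kidney gene, was at 2267 ± 241 CPM in db/db libraries and 397 ± 70.9 CPM in db/m libraries (log2 fold change 2.52, SE 0.16, adjusted p = 0.000205). Among the 3 genes listed as higher in females, Slc7a12 and Cyp4a14 fell (log2 fold changes -4.17 and -2.50) and Cyp2a4 rose (1.46, SE 0.28, adjusted p = 0.0115). Cyp2a4, Cyp4a14 and Cyp4a12a are close in sequence to other genes of their families, and reads may have been split among them.

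The high Kap of db/m replicate 3 had company within the db/m group. Of the 14 male-biased genes, 10 were highest in db/m replicate 3 among the db/m libraries, against 34.4% of all genes tested. Among them Odc1, which starts polyamine synthesis, was at 113, 101 and 179 CPM in db/m libraries, and Cyp2j13 at 5.78, 0.683 and 55.1 CPM. All of these values were below the lowest db/db library, at 1741 CPM for Odc1 and 354 CPM for Cyp2j13. The adipocyte marker sum was also highest there among db/m libraries, and its part in the result was not tested.

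Targets of Stat5 and of the estrogen receptor known from other tissues were called about as often as other genes, with 2 of 15 tested higher and 2 lower, against 13.1% and 10.8% of all genes tested, and a median of -0.03 on the log2 scale, against -0.06. Pdzk1, a scaffold protein of the proximal tubule brush border that estrogen raises in human breast cells, was at 1312 ± 47.6 CPM in db/db libraries and 881 ± 62.3 CPM in db/m libraries (log2 fold change 0.57, SE 0.09, adjusted p = 0.00593). Ccnd1, the cell cycle gene cyclin D1, fell to 152 ± 15.5 CPM in db/db libraries, against 399 ± 91.6 CPM in db/m libraries (log2 fold change -1.40, SE 0.17, adjusted p = 0.00207). Bcl2l1, an inhibitor of cell death, rose (log2 fold change 0.37, SE 0.08, adjusted p = 0.0198), though not when db/m replicate 2 or any single db/db library was left out (adjusted p = 0.0524 to 0.0641).

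**Figure D4:**
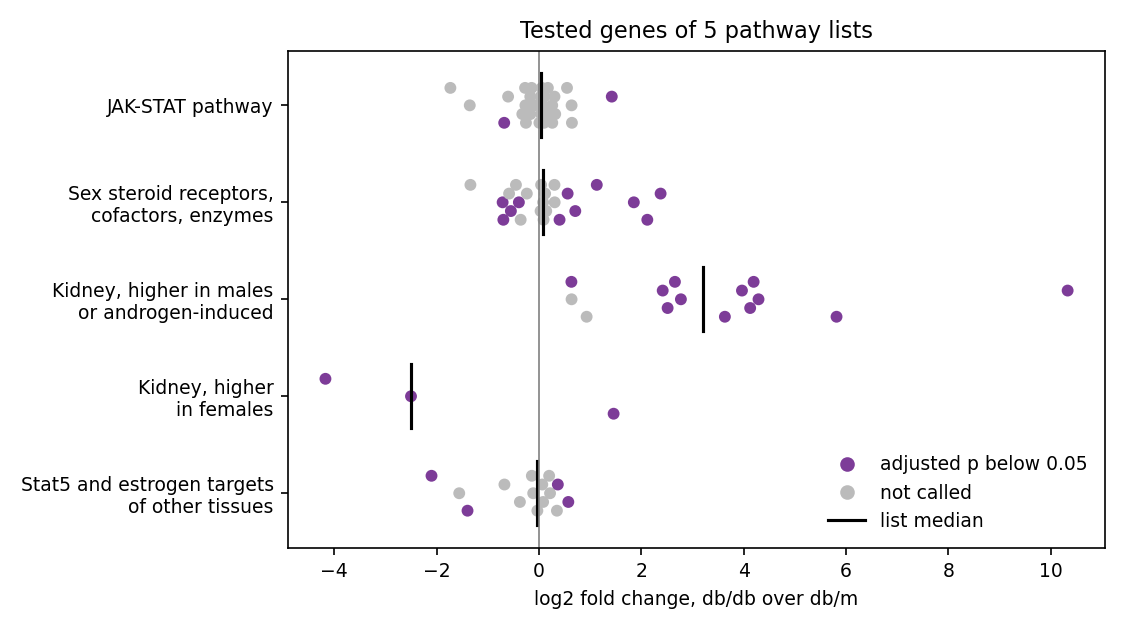
Log2 fold change of db/db over db/m for each tested gene of 5 lists that hold none of the 9 genes; purple points have an adjusted p below 0.05 (edgeR), grey points do not, and black bars are list medians. Genes higher in males lie on the right with a median of 3.20, and the JAK-STAT list centres on 0.05.

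The genes with the pattern most like that of Prlr over the 6 libraries, by the distance between log2 CPM values centred on their mean, were Abcb1b, a drug efflux pump (distance 0.21), Pla2g5, a secreted phospholipase (0.39), and Slc22a3, an organic cation transporter (0.42). Abcb1b was at 4.42, 2.89 and 4.05 CPM in db/db libraries and 21.6, 17.8 and 22.5 CPM in db/m libraries. For Kap they were the acyl-CoA synthetase gene Acsm3 (1.73), the glucuronosyltransferase gene Ugt2b37 (1.77) and Mettl7a3 (1.86). For Esr1 they were Xlr4a (1.13), Pcdhga7 (1.16) and C1qtnf2 (1.25). Of these, Pcdhga7, a protocadherin gene, was at 6.22, 6.97 and 0.475 CPM in db/db libraries and 1.05, 2.28 and 1.64 CPM in db/m libraries, so db/db replicate 3 was low for it as well.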

How the data were processed

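Polyadenylated RNA of whole kidneys was made into strand-specific libraries, per the labels' protocols. The authors deposited raw counts in whole numbers, 1 row per gene symbol and 1 column per library. fastp, FastQC, HISAT2, SAMtools, StringTie and DESeq2 are named in the submitters' processing notes; the sources used here state neither their roles nor the genome build, the annotation or how reads were counted. A value of 2 was found 4164 times and a value of 1 was found 1318 times over the 6 libraries, so what 1 count stands for is uncertain, and intervals for single low counts with it. A count of 0 allows up to 3 counts, or 0.0835 to 0.116 CPM of the total.

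After filterByExpr, 16373 genes were tested with the edgeR 4.0.16 quasi-likelihood test (R 4.3.3, TMM scaling, factors 0.901 to 1.122, no covariates, Benjamini-Hochberg adjustment over all genes). Means carry the SD over 3 libraries, CPM use TMM-scaled library sizes, and the SE is the log2 fold change divided by the square root of F. An adjusted p below 0.05 is a call. Tested on counts simulated for db/db minus db/m with 16049 genes, 2-, 4- and 8-fold changes were recovered for 65.2%, 91.0% and 98.5% of changed genes, with 13 of 182 calls false. Far fewer genes were called there than in the data (3925 of 16373), so these rates may not hold for the data. Libraries of a group differed by more than sampling noise (chi-square 15.9 to 59.5 per degree of freedom). The 9 genes, the 5 pathway lists and the marker lists were chosen with earlier results of these data known. The text names all 9 genes; from each pathway list up to 4 called genes by smallest p (at most 3 in the commoner direction); Jak2, Stat5a, Esr2, Igf1 and Socs3; and the 3 genes most like Kap, Prlr and Esr1. Acsm3 is described only there. Results for some other listed genes are not reported here. Hsd17b2, Slc27a2, Slc5a12, Slc34a1, Gusb, Cyp4a12a, Odc1 and Cyp2j13 were named after their values were seen. Alternatives were DESeq2 1.42.0 size factors and Wald test, upper quartile and total count scaling, limma-voom (limma 3.58.1), no filter, a stricter filter (1 CPM and 10 counts in 3 libraries), a block for the replicate number, and leaving out each library. Leaving out both replicates numbered 3 was added after the data were seen.

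Of the other markers, the thick ascending limb list summed to 2519 to 4931 CPM in db/db libraries and 2981 to 4070 CPM in db/m libraries, the distal and connecting tubule list to 857 to 934 CPM in db/db libraries and 1225 to 1920 CPM in db/m libraries, and the collecting duct list to 561 to 731 CPM in db/db libraries and 898 to 1341 CPM in db/m libraries. The adrenal list summed to 3.45 to 3.91 CPM in db/db libraries and 4.35 to 6.58 CPM in db/m libraries, with Cyp11b1 and Cyp21a1 at 0 counts in all 6 libraries.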

Additional observations from a re-analysis of the deposited data

How the results depend on the processing

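With total counts only, the median over all genes of the log2 fold change was -0.32 instead of -0.06 with TMM, and 1072 genes were higher and 4883 lower instead of 2151 and 1774. There Ghr had 0.99 and Stat5b -0.23 (about the median of all genes), 10 JAK-STAT genes were lower, 4 steroid genes were higher, and the Stat5 and estrogen target list had 1 higher and 4 lower. JAK-STAT genes higher came to 2 with DESeq2 size factors and 3 with the DESeq2 test, those lower to 2 with upper quartile scaling or the stricter filter, and Stat5 and estrogen targets lower to 1 with limma-voom. Jak2 changed sign with upper quartile scaling (-0.030), total counts only (-0.25), limma-voom (-0.0063) and the replicate block (-0.0015), and ran from -0.13 to 0.13 with 1 library left out; Socs3 ran from -0.067 to 0.61. The cause of these shifts was not tested.

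Same-numbered libraries did not deviate together throughout (correlations of -0.152, 0.058 and 0.143), and not every library correlated best with its own number. The numbers were therefore not treated as a pairing in the main test. With deviations taken from the means of groups of 3, these correlations cannot decide whether the libraries were paired. With the replicate number as a block, 1313 genes were higher and 973 lower, 2 steroid genes were lower, the Stat5 and estrogen target list had 1 higher and 1 lower, and Bcl2l1 (adjusted p = 0.0738) was not called. With both replicates numbered 3 left out, 1052 genes were higher and 660 lower, Kap had 7.04 and Greb1 -5.82, 2 steroid genes were lower and the target list had 1 higher and 1 lower.

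With 1 library left out, 1374 to 2011 genes were higher and 851 to 1523 lower; the smallest counts came without db/db replicate 3 (1374 higher) and without db/m replicate 2 (851 lower). Kap ran from 5.38 to 7.07 and Greb1 from -5.82 to -5.04. JAK-STAT genes higher ran from 1 to 2 and lower from 0 to 3, steroid genes lower from 2 to 3, and Stat5 and estrogen targets higher from 1 to 2 and lower from 1 to 2. Socs2 ran from -0.50 to 0.32 and Stat5b from -0.06 to 0.10, so neither direction held. Cish stayed below 0 and Esr1 and Bcl6 above 0, with groups of 3 limiting the precision. Greb1 in db/db kidneys rests on 4 to 13 counts per library, and intervals cover the spread between libraries only.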

Other observations

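Irf1, which interferon gamma induces and which was among the Stat5 and estrogen targets called lower, was at 13.7, 13.8 and 17.2 CPM in db/db libraries and 16.0, 116 and 59.2 CPM in db/m libraries. Its log2 fold change was -2.10 (SE 0.61, edgeR adjusted p = 0.0441), and db/m replicate 1 lay within the range of the db/db libraries. The call held without db/m replicate 1 (adjusted p = 0.0033) and ended when any other library was left out (adjusted p = 0.0728 to 0.130), with limma-voom (0.149) and with the replicate block (0.0898). Without db/m replicate 2 the log2 fold change was -1.33. Socs2 was also highest of the db/m libraries in db/m replicate 2, but Cish was lowest there.

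Gadd45g, a stress-induced gene that Stat5 raises in some blood cells, was at 227, 91.6 and 103 CPM in db/db libraries and 66.5, 73.6 and 316 CPM in db/m libraries, with the highest value in db/m replicate 3. Elf5, a transcription factor downstream of prolactin in the mammary gland, was at 1.32, 0.357 and 5.62 CPM in db/db libraries and 2.62, 4.38 and 14.7 CPM in db/m libraries. Replicate 3 was the highest of each group for Elf5, as it was for the adipocyte marker sum. These genes were chosen after their values were seen.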
